A study of Mus musculus with 6 samples.

Results

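The FOXO family is a group of forkhead transcription factors, and in mice its members are Foxo1, Foxo3, Foxo4 and Foxo6. The genes were chosen by symbol, and each had 1 probe set whose only annotated gene symbol was that member, so the family was represented by 4 of the 34760 probe sets on the arrays. RNA was measured in v-Abl transformed mouse pro-B cells, early B lineage cells kept growing by a viral form of the Abl kinase. There were 3 tamoxifen samples, given 1 µM tamoxifen for 2 days, and 3 untreated samples. All 6 samples had the same genotype (Foxo1f/f; ERCre, strain C57/BL6): both groups carried Foxo1 alleles flanked by loxP sites, and an oestrogen receptor fusion of Cre recombinase that tamoxifen switches on. The labels name the untreated cells WT and the tamoxifen cells Foxo1 knockout, although the starting genotype was shared. No cells with intact Foxo1 and tamoxifen were analysed here, so tamoxifen, Cre activity and loss of Foxo1 cannot be told apart. Nothing in the labels says that the samples of a group were separate cultures or how many clones the line held, and p-values therefore reflect the spread between these particular samples alone, which may be technical.

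FOXO proteins bind a short DNA element through the forkhead domain and mostly switch genes on. When growth factor signalling activates PI3K, the kinase AKT phosphorylates FOXO proteins, which are then held by phosphoserine-binding adaptors and exported from the nucleus, so that FOXO activity depends on protein location as well as on RNA level. In early B cells FOXO1 is required for the expression of the recombinase genes and for progress through the pro-B stage, while FOXO3, FOXO4 and FOXO6 are related factors with partly shared targets; Foxo6 is best known from the brain.

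The DNA element searched for was TGTTTAC on either strand (GTAAACA on the other strand), a core that FOXO and other forkhead proteins recognise, in the RefSeq window of 250 bases before to 50 bases after each gene start (build GRCm38.p6). It was present in 1199 of 32851 windows (3.65%). Of the members, Foxo1 and Foxo3 had a window and 0 of these 2 held the element. Of the 20 probe sets called between tamoxifen and untreated cells, 14 matched a gene with a window, and 0 of these 14 held it. Among the pathway and forkhead genes named below the element was in the windows of 3 genes. The number of those named genes with a window is not given here, so the 3 cannot be set against the 3.65%. They are shown because they place the element beside measured genes. The element is in capitals, and each window is read in the direction of its gene, which lies on the minus strand.
Mdm2, chr10:117710894-117710922: ggtttcgagcgGTAAACAcaaccgcgcgg
Hdac7, chr15:97831861-97831889: ccctggcttgtGTAAACAtggatgcacgc
Foxa1, chr12:57546235-57546263: tatactgctttGTAAACAaagtgagggcc

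In all 3 the match was to GTAAACA, beginning 153, 111 and 141 bases before the start of Mdm2, Hdac7 and Foxa1. A match is a string of letters, and binding was not measured.

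The arrays were alike in scale. Array medians ran from 100.9 to 109.1 intensity units and lower quartiles from 43.3 to 47.3, and the correlation of log2 values between arrays was 0.986 to 0.994 within a group and 0.985 to 0.993 between groups. The number of arrays limits the precision. B lineage markers were bright, with 11 of 13 at or above the array median and a mean of up to 4894, and their summed intensity was 23474 to 24395 in tamoxifen cells and 20498 to 22974 in untreated cells. Of these 13 markers limma called 0, and 8 had an unadjusted p under 0.05 (61.5%, where 5.15% of all named genes did), 5 higher and 3 lower in tamoxifen cells; their part in the results below was not tested. Markers of T cells (7 genes), myeloid cells (8) and erythroid cells (4) had 1, 1 and 2 members at or above the array median, and 0 of these 19 genes passed the limma test or had an unadjusted p under 0.05. Their summed intensities overlapped for T cells (414 to 501 in tamoxifen cells and 413 to 507 in untreated cells), for myeloid cells (600 to 643 in tamoxifen cells and 595 to 685 in untreated cells) and for erythroid cells (339 to 385 in tamoxifen cells and 380 to 391 in untreated cells).

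Foxo1, the gene that the treatment was designed to delete, was low after tamoxifen. It measured 116, 151 and 134 in tamoxifen samples 1, 2 and 3, against 806, 624 and 512 in untreated samples 1, 2 and 3. The groups were far apart, and the highest tamoxifen value lay below the lowest untreated value. The tamoxifen mean was 134 ± 17.8 and the untreated mean 647 ± 149 (SD, n = 3 each), so that 20.7% of the untreated signal was left. On the quantile-normalised log2(value + 16) scale, where changes of dim genes come out too small, the log2 fold change was -2.13 ± 0.15 (SE), with a 95% interval of -2.48 to -1.77, which is a fold of 0.229 (0.179 to 0.293), and a limma adjusted p = 0.0178 over all probe sets. Foxo1 had the second lowest log2 fold change of the 34760 probe sets. In this comparison 20 probe sets passed (0.0575%), 13 raised (0.0374%) and 7 lowered (0.0201%). The sources used here do not say whether the Foxo1 probe set covers the deleted part of the gene, so how directly the fall reports the deletion is not known. In bulk RNA, fewer cells with intact Foxo1 and less Foxo1 RNA in each cell cannot be told apart.

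The remaining Foxo1 signal sat in the middle of the arrays. It ranked between the 54.0 and the 60.8 percentile of probe sets in tamoxifen samples, against the 84.7 to 89.0 percentile in untreated samples. These percentiles place a probe set within its array and do not rank genes, since brightness also depends on the probes. The file marks no control probe sets, so the part of this signal that is background was not tested. On the linear scale the coefficient of variation was 13.3% in tamoxifen samples and 23.0% in untreated samples. The fold change kept its direction and its size with any array left out (-2.26 to -1.97), but the call did not: the limma adjusted p was 0.0276 without untreated sample 1, and it was 0.0994, 0.121 and 0.156 without tamoxifen samples 1, 2 and 3 and 0.129 and 0.0843 without untreated samples 2 and 3.

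**Figure D1:**
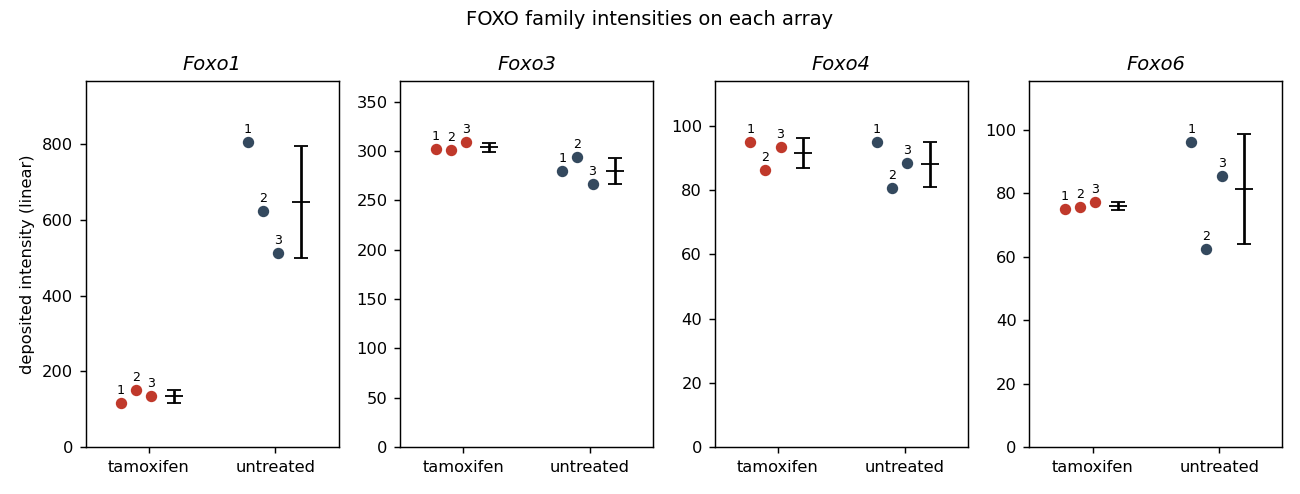
Deposited intensity (linear scale, from 0) of Foxo1, Foxo3, Foxo4 and Foxo6 on each array, with tamoxifen samples in red and untreated samples in dark blue. Points carry the replicate number and the bars beside them are the mean ± SD (n = 3). Foxo1 lies at 116 to 151 in tamoxifen samples and at 512 to 806 in untreated samples, while the other members stay within the same range in both groups or close to it.

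Foxo3, a widely expressed relative of Foxo1, was slightly higher in tamoxifen samples without passing the test. Its intensity was 302, 301 and 309 in tamoxifen samples 1, 2 and 3, against 279, 294 and 267 in untreated samples 1, 2 and 3. All tamoxifen values lay above all untreated values, by a narrow margin, a separation that 9.89% of all probe sets showed in either direction. The means were 304 ± 4.63 in tamoxifen cells and 280 ± 13.4 in untreated cells (SD, n = 3 each). The log2 fold change was 0.10 ± 0.06 (SE), with a limma adjusted p = 0.9995 (0.159 unadjusted) and a 95% interval of -0.05 to 0.24, or 0.967-fold to 1.18-fold. The log2 fold change of Foxo3 was above that of 83.4% of probe sets. Foxo3 was the steadiest member, with normalised log2 values that spanned 0.16 over the 6 arrays, and with any array left out its log2 fold change ran from 0.07 to 0.12.

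Foxo4, an X-linked member, had signals near the array median in both groups. Its intensity was 95.03, 86.4 and 93.5 in tamoxifen samples 1, 2 and 3, against 94.99, 80.7 and 88.4 in untreated samples 1, 2 and 3. The groups overlapped, and in each of them sample 2 was the lowest and sample 1 the highest. The log2 fold change was 0.07 ± 0.09 (SE), with a limma adjusted p = 0.9995 and a 95% interval of -0.14 to 0.27, or 0.906-fold to 1.21-fold. With arrays left out in turn it ran from 0.02 without tamoxifen sample 1 to 0.13 without untreated sample 1.

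Foxo6 was dim and was tight in tamoxifen samples but scattered in untreated samples. Its intensity was 74.99, 75.8 and 77.4 in tamoxifen samples 1, 2 and 3, against 96.2, 62.4 and 85.4 in untreated samples 1, 2 and 3. The tamoxifen values all fell between the lowest and the highest untreated values, and the coefficient of variation was 1.58% in tamoxifen samples and 21.3% in untreated samples. The log2 fold change was -0.05 ± 0.13 (SE), with a limma adjusted p = 0.9995 and a 95% interval of -0.37 to 0.27, or 0.776-fold to 1.21-fold. Its sign turned without untreated sample 1 (0.08), and without untreated sample 2 the value was -0.19. Foxo6 ranked between the 33.5 and the 47.6 percentile of the arrays, below the median on each of them.

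Across the family, 1 of 4 members, Foxo1, passed the limma test (0.0575% of all probe sets did). The same member alone had an unadjusted p under 0.05 (5.11% of all probe sets did). Groups did not overlap for 2 of 4, Foxo1 and Foxo3, where 9.89% of all probe sets showed this. Since the treatment was designed to delete Foxo1, its place in these counts cannot be read against the shares of all probe sets. The upper bounds for Foxo3, Foxo4 and Foxo6 of the 95% intervals were 1.18-fold, 1.21-fold and 1.21-fold. Foxo3 and Foxo4 were on the positive side, as were 46.1% of all probe sets, and a p that misses the threshold does not show that these genes stayed the same.

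Set against each other member within an array, Foxo1 was lower in every tamoxifen sample than in any untreated sample. The log2 ratio of Foxo1 to Foxo3 was between -1.17 and -0.95 in tamoxifen samples and between 0.93 and 1.44 in untreated samples, a difference of -2.22. The log2 ratio of Foxo1 to Foxo4 was 0.23 to 0.72 in tamoxifen samples and 2.48 to 2.83 in untreated samples, a difference of -2.19. For Foxo1 to Foxo6 the ratio was 0.52 to 0.87 in tamoxifen samples and 2.52 to 2.98 in untreated samples, a difference of -2.08. None of these ranges overlapped, and each of the 3 gave an exact two-sided permutation p = 0.1, the smallest that 3 samples against 3 can give, or 0.2 after Benjamini-Hochberg adjustment over the 6 pairs of members. The design therefore cannot take this test below 0.05. Between the other members the differences were small: 0.03 for Foxo3 to Foxo4, 0.14 for Foxo3 to Foxo6 and 0.11 for Foxo4 to Foxo6, with exact permutation p of 0.7, 0.6 and 0.4.

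**Figure D2:**
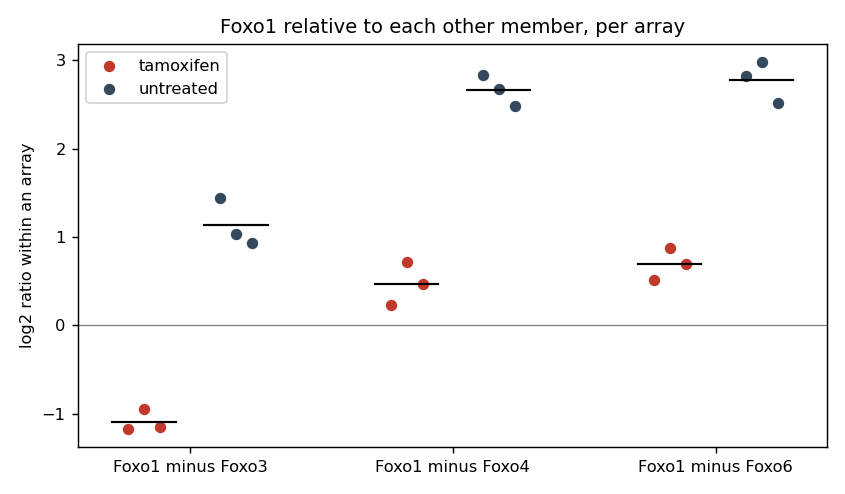
Log2 ratio of Foxo1 to Foxo3, Foxo4 and Foxo6 within each array, from normalised log2(value + 16), with tamoxifen samples in red to the left of untreated samples in dark blue and lines at the group means. The groups do not overlap in any of the 3 ratios, with differences of -2.22, -2.19 and -2.08.

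The other forkhead genes on the arrays had log2 fold changes close to 0. There were 39 of them with a probe set of their own, 1 brightest probe set each, and limma called 0 of the 39, of which 0 had an unadjusted p under 0.05 and 0 had groups without overlap. Over all 19937 named genes 0.0853% were called and 5.15% had an unadjusted p under 0.05. Groups without overlap were found for 9.89% of all probe sets. The log2 fold changes of the 39 ran from -0.15 (Foxs1, named after its value was seen) to 0.14 (Foxd3). Of the 39, 18 were positive (44.5% of all named genes were). The median was -0.02, where the median of all named genes was -0.01. The 6 with the smallest p were Foxj2 (0.11), Foxc2 (-0.11), Foxd3, Foxi1 (-0.12), Foxe3 (-0.10) and Foxa1 (-0.11), all with a limma adjusted p = 0.9995. Of genes with a known place in lymphocytes or dividing cells, chosen after their values were seen, Foxp1, a forkhead repressor needed in early B cells, measured 676 ± 19.6 in tamoxifen cells and 687 ± 37.8 in untreated cells (SD, n = 3 each), a log2 fold change of -0.04 ± 0.06 (SE). Foxm1, an activator of mitotic genes, measured 924 ± 20.2 in tamoxifen cells and 951 ± 73.7 in untreated cells (SD, n = 3 each). Foxj3 was the brightest of the 39, at 1474 ± 78.7 in tamoxifen cells and 1397 ± 35.7 in untreated cells, with a log2 fold change of 0.07 ± 0.06 (SE).

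**Figure D3:**
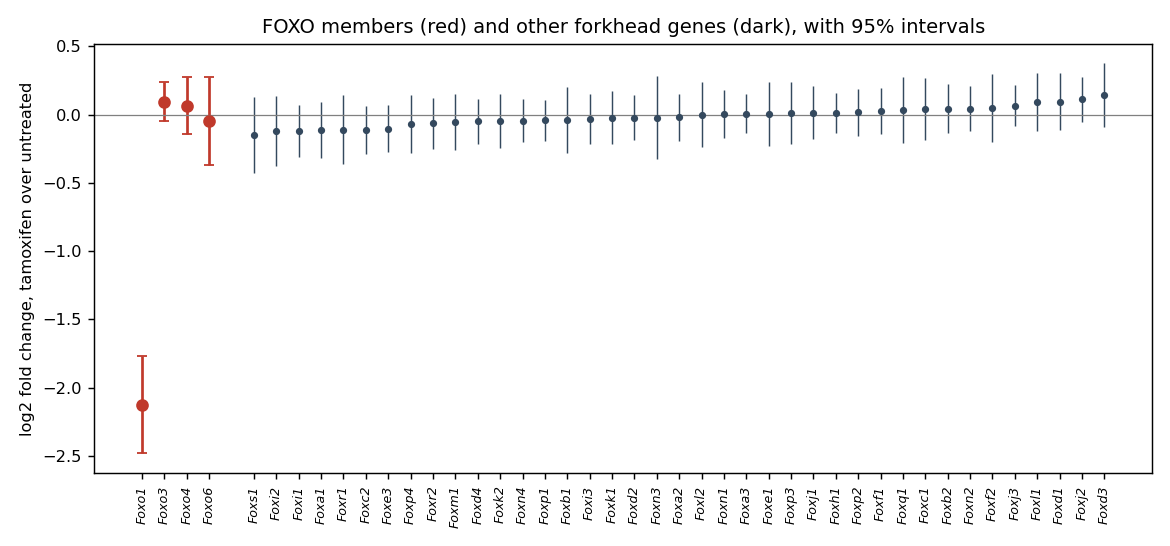
Log2 fold change of tamoxifen over untreated cells with its 95% interval, for the 4 FOXO members in red and 39 other forkhead genes in dark blue, sorted by value. Foxo1 is at -2.13, and the intervals of the other 42 genes cross 0.

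The genes whose pattern over the 6 arrays was most like that of Foxo1 included Tgfb3 and 4 genes that did not pass the test. They were sought among 144 named genes whose normalised log2 values spanned at least 1, and the measure was Pearson's r over 6 arrays, given as a description since every such gene shares the same shift between the groups; 13 of the 144 had r above 0.9 and 21 had r under -0.9. The highest were Efhd1, a calcium-binding protein of mitochondria (0.993), Tgfb3, a TGF-beta ligand (0.985), Gja1, a connexin of gap junctions (0.974), Pdzd2, a PDZ-domain protein (0.968), and Drc7, a component of the regulatory complex of motile cilia (0.961). Efhd1 measured 101, 115 and 121 in tamoxifen samples and 363, 269 and 242 in untreated samples, so it shared with Foxo1 the high value in untreated sample 1. That sample was also the highest for Gja1, Pdzd2 and Drc7, but not for Tgfb3. Drc7 measured 535, 358 and 358 in tamoxifen samples and 1470, 1072 and 933 in untreated samples. The log2 fold changes were -1.23 for Efhd1, -0.89 for Gja1, -0.70 for Pdzd2 and -1.45 for Drc7, with limma adjusted p of 0.0642, 0.110, 0.230 and 0.0993. With the probe sets of each gene averaged, all 4 passed (limma adjusted p of 0.0064, 0.0138, 0.0495 and 0.0110). That setting tests fewer features and also gave smaller standard errors for these 4 genes, and the cause of the gained calls was not tested.

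The 5 genes most opposite to Foxo1 were all higher in tamoxifen cells. They were Lsp1, a leukocyte actin-binding protein (r of -0.994), Ceacam1, an inhibitory adhesion receptor (-0.993), Tnfrsf13c, the BAFF receptor (-0.987), Bcar3, an adaptor (-0.985), and Fcrl1, an Fc receptor-like protein of B cells (-0.976). The first 4 passed the limma test, and Fcrl1 did not, with 155 ± 18.8 in tamoxifen cells and 81.3 ± 10.7 in untreated cells (SD, n = 3 each), a log2 fold change of 0.82 ± 0.11 (SE) and a limma adjusted p = 0.114. The calls of Lsp1, Ceacam1, Tnfrsf13c and Bcar3 were lost in 9, 8, 8 and 8 of 16 alternatives, with limma adjusted p of up to 0.199, and Fcrl1 passed with averaged probe sets (0.0156). Of the other members, Foxo6 spanned 0.54 over the arrays, from untreated sample 2 to untreated sample 1. The genes most like it were Rag2 (r = 0.846), Iftap (0.733) and Tubb2a (0.726). These were the highest of 144 values of r over 6 arrays, for a dim gene whose groups overlapped, and are given as a description only. Rag2 and Iftap were dim, at 31.8 and 18.1 in tamoxifen cells and 46.3 and 53.2 in untreated cells.

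**Figure D4:**
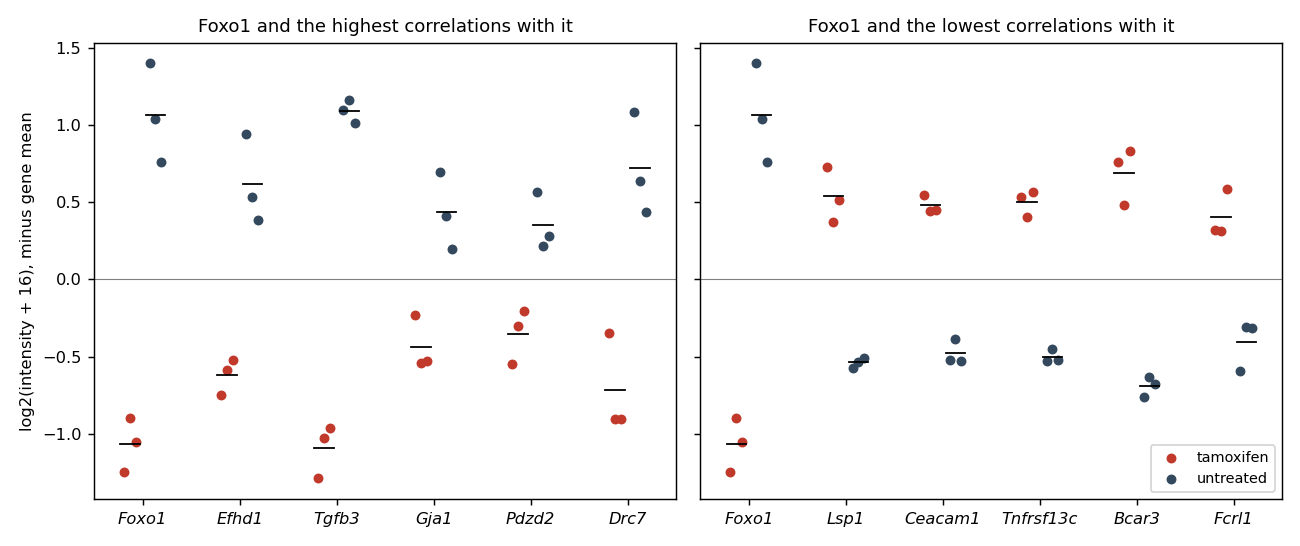
Log2(intensity + 16) minus the mean of each gene, for Foxo1 with the 5 genes of highest (left) and lowest (right) correlation with it, tamoxifen samples in red to the left of untreated samples in dark blue, lines at group means. In the left panel every gene is lower in all tamoxifen samples, and in the right panel every gene but Foxo1 is higher in them.

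The genes that act on FOXO proteins showed small differences, and none passed the test. These lists were chosen with earlier results of these data known, so their shares cannot be read against those of all named genes. Of 24 measured upstream kinases and phosphatases limma called 0. Of these genes 4 had an unadjusted p under 0.05 (16.7%, against 5.15% of all named genes), all higher in tamoxifen cells. A positive log2 fold change was found for 17 (70.8%, against 44.5% of all named genes), and the median was 0.03. A mean at or above the array median was found for 23 of the 24, and a background of like brightness was not tested. Stk4, the kinase MST that phosphorylates FOXO under oxidative stress, measured 2351, 2100 and 2134 in tamoxifen samples and 1958, 1753 and 1589 in untreated samples. These groups did not overlap, and the log2 fold change was 0.32 ± 0.07 (SE) with a limma adjusted p = 0.384. Pik3r1, the regulatory subunit of PI3K, measured 1082, 999 and 1005 in tamoxifen samples and 812, 921 and 778 in untreated samples, a log2 fold change of 0.28 with a limma adjusted p = 0.488. Mapk14, a stress kinase (0.27), Dyrk1a, a kinase that phosphorylates FOXO1 (0.14), Pdpk1, the kinase that activates AKT (0.16), and Nlk, a kinase that restrains FOXO1 (0.14), had limma adjusted p of 0.731 or more. At the other end Rictor, of the mTOR complex that completes AKT activation, named after its value was seen, measured -0.18.

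Modifiers, anchors and partners of FOXO proteins were balanced around 0. Of 32 measured genes limma called 0, 2 had an unadjusted p under 0.05 (6.25%, close to the 5.15% of all named genes), 16 were positive (50%, against 44.5% of all named genes), and the median log2 fold change was 0.00. Mdm2, a ubiquitin ligase of p53 that also acts on FOXO proteins, measured 805, 710 and 710 in tamoxifen samples and 638, 623 and 544 in untreated samples. All tamoxifen values were higher, and the log2 fold change was 0.28 ± 0.06 (SE) with a limma adjusted p = 0.377. Sirt3, a mitochondrial deacetylase, measured 151 ± 4.86 in tamoxifen cells and 173 ± 6.79 in untreated cells (SD, n = 3 each), a log2 fold change of -0.18. Skp2, a ubiquitin ligase subunit that targets FOXO1, had -0.17, the deacetylases Hdac4 and Hdac7 had -0.15 and -0.24, and the phosphoserine-binding adaptor Ywhah had 0.18, with limma adjusted p of 0.9995.

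Known FOXO targets from other cell types centred near 0. Of 39 measured limma called 0. An unadjusted p under 0.05 was found for 6 (15.4%, against 5.15% of all named genes), 4 higher and 2 lower in tamoxifen cells. A positive value was found for 22 (56.4%, against 44.5%), and the median log2 fold change was 0.02. This list too was chosen with earlier results known, so these shares cannot be read against those of all named genes. Sesn3, a stress-induced inhibitor of mTOR signalling, measured 734, 514 and 530 in tamoxifen samples, against 361, 375 and 313 in untreated samples. The groups did not overlap, with a log2 fold change of 0.70 ± 0.11 (SE) and a limma adjusted p = 0.206. Bnip3, a mitophagy receptor, measured 724, 520 and 460 in tamoxifen samples, against 1017, 1407 and 999 in untreated samples. Its groups did not overlap either, with a log2 fold change of -1.01 ± 0.17 (SE) and a limma adjusted p = 0.227. Rbl2, a pocket protein of quiescent cells (0.38), Klf6, a zinc finger factor (0.34), and Ccng2, an atypical cyclin (0.47), were higher, and Insr, the insulin receptor (-0.25), was lower, with limma adjusted p between 0.360 and 0.896. Trp53inp1, a stress protein chosen after its value was seen, had 0.45 ± 0.24 (SE).

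Among FOXO1 targets described in B lymphocytes, 1 of 14 measured genes passed, where 0.0853% of all named genes did, and it was higher in tamoxifen cells. Spib, an Ets-family factor, measured 443, 383 and 385 in tamoxifen samples, against 172, 143 and 150 in untreated samples, with a limma adjusted p = 0.0138. It had been placed in the list with its result known, so the 1 of 14 cannot be read against the share of all named genes. The Spib call was lost in 7 of 16 alternatives (limma adjusted p of up to 0.142). The list had 8 positive members, a median log2 fold change of 0.07 and 5 genes at an unadjusted p under 0.05 (35.7%, against 5.15% of all named genes), 3 higher and 2 lower. Spib is among these 5, so that share has the same limit. Ebf1, a factor that specifies the B lineage, measured 1597, 1273 and 1281 in tamoxifen samples, against 2078, 1976 and 1811 in untreated samples, all lower in tamoxifen cells, with a limma adjusted p = 0.169. Ccr7, a homing receptor (0.33), Cd79a, a chain of the B cell receptor (0.32), and Ikzf1, a lymphoid zinc finger factor (0.16), were on the positive side and Bach2, a B cell repressor (-0.43), on the negative side, with limma adjusted p of 0.369 or more. Cxcr4, a chemokine receptor chosen after its value was seen, had 0.37 ± 0.19 (SE). The recombinase genes Rag1 and Rag2, also chosen after their values were seen, were dim and had -0.26 ± 0.19 and -0.32 ± 0.24 (SE).

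**Figure D5:**
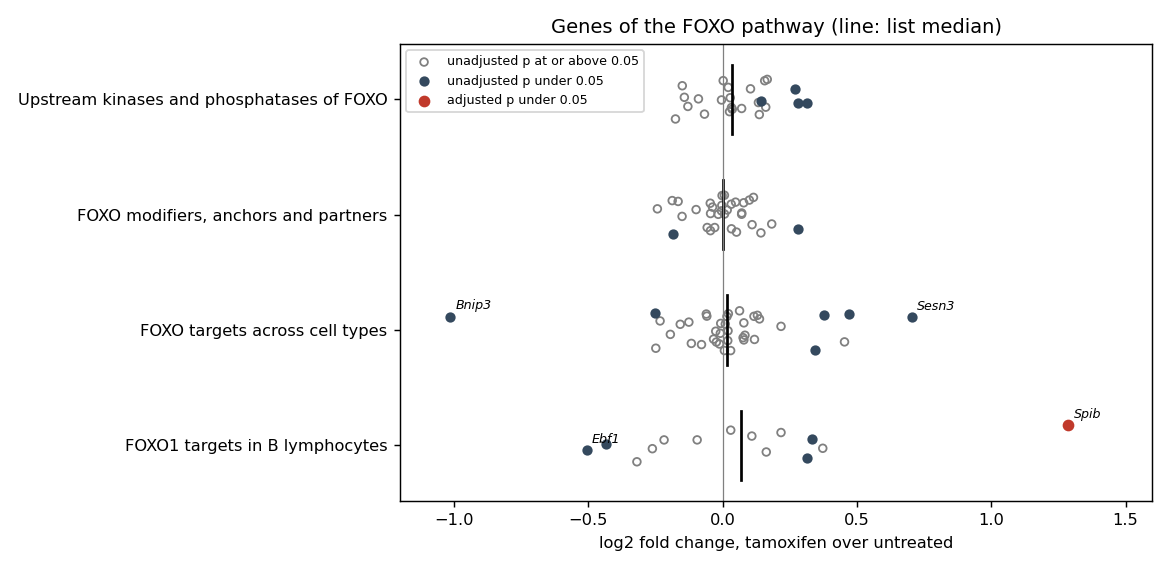
Log2 fold change of tamoxifen over untreated cells for each measured gene of 4 FOXO pathway lists, with a line at each list's median. Filled dark points have an unadjusted p under 0.05, the red point (Spib, 1.29) passed an adjusted p of 0.05, and genes beyond 0.5 in either direction are named; the medians lie between 0.00 and 0.07.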

How the data were processed

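Total RNA of 6 samples was hybridised to gene-level arrays, from biotinylated cRNA per the labels' protocols. The authors deposited 1 linear intensity for each probe set on each array; background correction, summarisation and normalization by the authors are not given in the sources used here. Values were turned to log2(value + 16), quantile normalised and compared with limma 3.58.1 (lmFit, eBayes; R 4.3.3; two-sided, Benjamini-Hochberg over 34760 probe sets, threshold 0.05). Probe sets were named from a platform table: 21640 had 1 symbol, 1321 several and 11799 none; 0 symbols changed when updated through RefSeq, and the brightest probe set stood for a gene (19937 genes). Within-array ratios were tested by exact permutation over samples. A test of the model on simulated data was run, and its outcome is not given here.

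The members, lists and tests were chosen with earlier results of these data known. Named were the members, the genes past the threshold and the smallest p up to 6 per list (marker lists are given as counts and ranges), and the 5 highest and 5 lowest correlations with Foxo1, with 3 for Foxo6. Genes passed over by that rule are marked as chosen afterwards. Alternatives were other normalizations, pseudocounts of 1 and 64, no dim probe sets, averaged probe sets, array weights, robust eBayes with an intensity trend, a replicate block and each array left out.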

Additional observations from a re-analysis of the deposited data

How the results depend on the processing

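Foxo1 kept a log2 fold change of -2.26 to -1.83 under 16 alternatives, and Foxo3 (0.07 to 0.13) and Foxo4 (0.02 to 0.13) kept their sign in all of theirs. The Foxo1 call was lost with arrays scaled to a common median (-2.12, limma adjusted p = 0.050025), under a replicate block (-2.13, adjusted p = 0.0936) and with each array but untreated 1 left out (-2.26 to -2.03; the fit without untreated 1 gave -1.97 and kept the call). Foxo6 ran from -0.19 to 0.0802 (without untreated 1) with an array left out. The 3 within-array differences kept their sign, and 0 other forkhead genes were called under any alternative. Dim probe sets left out removed Foxo4 and Foxo6, which have no value there. The count of 20 called probe sets was 3 after median scaling, 12 with no further normalization, 11 with a pseudocount of 1, 46 without dim probe sets, 73 with averaged probe sets, 12 with trend and robust eBayes, 39 with array weights and 0 to 6 with an array left out (0 without tamoxifen 2, tamoxifen 3, untreated 2 or untreated 3, where limma gave 1360 to 2218 at an unadjusted p under 0.05). The replicate block gave 0 calls, with 2525 at an unadjusted p under 0.05. After the group mean of each probe set was subtracted, the remainders of same-numbered samples correlated at 0.256, 0.0547 and 0.302. The remainders of tamoxifen 2 correlated better with those of untreated 3 (0.248). These correlations do not settle whether equal numbers mark shared cultures, and the labels do not say. The cause of these shifts was not tested. Of 1117 values for 71 other named genes, 1040 kept direction and side, 45 lost and 14 gained the threshold, and 18 turned sign. Those of the T cell markers Cd3d (0.0042 with cyclic loess, 0.00023 with median scaling, 0.0015 with a pseudocount of 1, 0.0275 with array weights) and of Tubb2a (0.0030 with cyclic loess, 0.0241 with median scaling, 0.0085 with no further normalization) were near 0. With an array left out Cd3d ran from -0.0794 to 0.11, Cd3e from -0.16 to 0.10, Cd4 from -0.0362 to 0.11, Tubb2a from -0.29 to 0.38 and Foxm1 from -0.11 to 0.0084. With averaged probe sets Ebf1 (limma adjusted p = 0.0366), Sesn3 (0.0398), Bnip3 (0.0406), Cd79b (0.0273), Efhd1 (0.0064), Drc7 (0.0110), Gja1 (0.0138), Fcrl1 (0.0156) and Pdzd2 (0.0495) gained a call. Efhd1, Gja1 and Drc7 also passed without dim probe sets (0.0258, 0.0472 and 0.0368), and Efhd1 and Drc7 with array weights (0.0398 and 0.0407).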
